A study of Homo sapiens with 8 samples.

Results

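The genes described here encode the proteins of 3 kinds of contact between epithelial cells, the desmosome, the tight junction and the adherens junction. They were chosen by gene symbol, as every claudin, desmoglein, desmocollin, plakophilin and TJP gene together with JUP, DSP, PPL, EVPL, OCLN, MARVELD2, MARVELD3, F11R, CGN, CDH1, CDH2, CDH3, CTNNA1 and CTNND1, which gave 52 of the 61533 gene identifiers in the count tables. RNA was measured in NEDD8i-treated A431, DMSO-treated A431, NEDD8i-treated CAL27 and DMSO-treated CAL27 cells, with 2 libraries in each group, all collected after 16 h. A431 is a human epidermoid carcinoma line and CAL27 a human squamous cell carcinoma line. NEDD8i is named in the labels only as such, DMSO is the solvent given to the controls, and NEDD8 is a ubiquitin-like protein that is attached to cullins and switches on their ubiquitin ligases. Both groups of a line share its genotype, each kind of carcinoma is represented by 1 established line, and the cells were grown below confluence. Nothing in the labels tells whether replicates are independent cultures. P-values here rest on the spread between such libraries, which may be technical.

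Desmosomes are spot-like contacts whose cadherins, the desmogleins and desmocollins, hold neighbouring cells together outside the membrane. Inside it they bind plakoglobin (JUP) and the plakophilins, which tie them through desmoplakin (DSP) to the keratin filaments, and this chain gives stratified epithelium such as epidermis and oral mucosa its resistance to mechanical stress. Tight junctions seal the space between cells with strands of claudins, which set what may pass, and with occludin and its relatives, and they are held at the membrane by the scaffold proteins TJP1, TJP3 and cingulin (CGN). Classical cadherins with the catenins form the adherens junction, which is linked to actin and usually precedes the others in the assembly of a contact.

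The 8 libraries held 49037868 to 62509817 counts each. Mitochondrial genes took 1.96% and 2.27% of the counts in the A431 NEDD8i libraries, against 2.69% and 3.15% in the A431 DMSO libraries, and 1.45% and 1.02% in the CAL27 NEDD8i libraries, against 1.77% and 1.56% in the CAL27 DMSO libraries. All 10 squamous epithelial markers had counts in every group, and their summed level was 15172 to 15830 CPM (counts scaled by library size) in A431 under NEDD8i, against 11139 to 11333 CPM under DMSO, and 21547 to 22428 CPM in CAL27 under NEDD8i, against 15846 to 15883 CPM under DMSO. By the test described below, 7 of them rose and 2 fell in A431, and 6 rose and 3 fell in CAL27. KRT5 and ITGB4 fell in both lines and TP63 in CAL27. Of all genes tested, 22.5% rose and 21.1% fell in A431, and 23.2% and 26.4% in CAL27. Of 9 fibroblast and mesenchymal markers 5 had a count in A431 under NEDD8i, against 7 under DMSO, with sums of 17.7 to 18.6 against 36.0 to 39.7 CPM, and 6 had one in CAL27 under NEDD8i, against 7 under DMSO, with sums of 7.84 to 12.5 against 22.4 to 24.8 CPM. THY1 had no count in A431, and VIM, the vimentin gene, averaged 0 CPM in A431 under NEDD8i and 0.203 CPM under DMSO. The 6 endothelial markers summed to 5.30 to 5.56 CPM in A431 under NEDD8i, against 19.6 to 21.9 CPM under DMSO, and to 10.9 to 11.1 CPM in CAL27 under NEDD8i, against 6.19 to 6.63 CPM under DMSO. Most of each sum came from CDH5 except in A431 under NEDD8i, where CDH5 averaged 2.24 CPM and VWF 2.84 CPM, and KDR had no count. Leukocyte markers summed to at most 0.787 CPM in any library, with no count of PTPRC or CD68. The part of these shifts in the results below was not tested. Each library came from 1 established line, and bulk RNA cannot tell fewer cells holding a transcript from less of it per cell.

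NEDD8i moved most of the measurable junction genes. Occludin, CLDN4, CLDN7, the desmosomal cadherins DSG3, DSC2 and DSC3, the plakophilin PKP2 and E-cadherin rose in both lines, while CLDN1 and the plakophilins PKP1 and PKP3 fell in both. TJP3, periplakin and envoplakin fell sharply in CAL27. Of the 52 genes, 40 had enough counts to be tested, 5 had no count at all (CLDN10, CLDN18, CLDN19, CLDN22 and CLDN25), and 7 (CLDN2, CLDN20, CLDN24, CLDN34, DSC1, DSG1 and DSG4) had at most 45 counts over the 8 libraries together. CLDN22 shares 100% of its exonic bases with WWC2, and CLDN10 shares 46.0% with DZIP1. Reads over more than 1 gene were dropped, so the lack of counts of CLDN22 says nothing about its RNA. Of the tested genes, CDH2, CLDN5 and CLDN17 had no count in A431, and CLDN11 had none in CAL27. They could not be called in that line. In A431, 26 of the 40 tested genes (65%) passed the test (edgeR's quasi-likelihood test, Benjamini-Hochberg adjusted p under 0.05 over 18738 genes), against 43.6% of all genes tested. Of these, 18 were higher and 8 lower under NEDD8i, where 22.5% of all genes were called higher and 21.1% lower. In CAL27, 31 of 40 (77.5%) passed, against 49.6% of all genes, with 17 higher and 14 lower, where 23.2% of all genes were called higher and 26.4% lower. A change of at least 2-fold was reached by 7 genes in A431, against 13.4% of all genes, and by 10 in CAL27, against 18.7%. The median log2 fold change of the tested junction genes was 0.20 in A431 and 0.16 in CAL27, beside -0.01 and -0.04 for all genes tested.

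The tested junction genes were more often abundant than other genes, with 27 of 40 averaging at least 10 CPM over the 8 libraries, against 9062 of all 18738 tested. In this abundant set, 21 of 27 junction genes were called in A431, against 67% of all such genes, and 27 of 27 in CAL27, against 73.4%. In the same set 16 of the 27 were called higher in A431, against 39% of all such genes, and 16 in CAL27, against 38%. The numbers lower were 5 in A431, against 28%, and 11 in CAL27, against 35.4%. Over all 40 tested genes, 13 rose in both lines, against 13.3% of all genes, and 4 fell in both, against 12.8%. Another 4 moved in opposite directions, against 4.99%. The A431 calls of TJP1, which rose in both lines, and of EVPL, which fell in both, were lost under some alternatives, as given below. The same held for PPL in A431 and DSG2 in CAL27, which moved in opposite directions. A further 5 were called in A431 alone, 10 in CAL27 alone and 4 in neither. These include CDH2, CLDN5, CLDN11 and CLDN17, which could not be called in the line where they had no count. No share over all genes was worked out for these last counts, so they are not read as a trait of the junction genes. The plot of fold changes by gene shows all role groups.

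**Figure D1:**
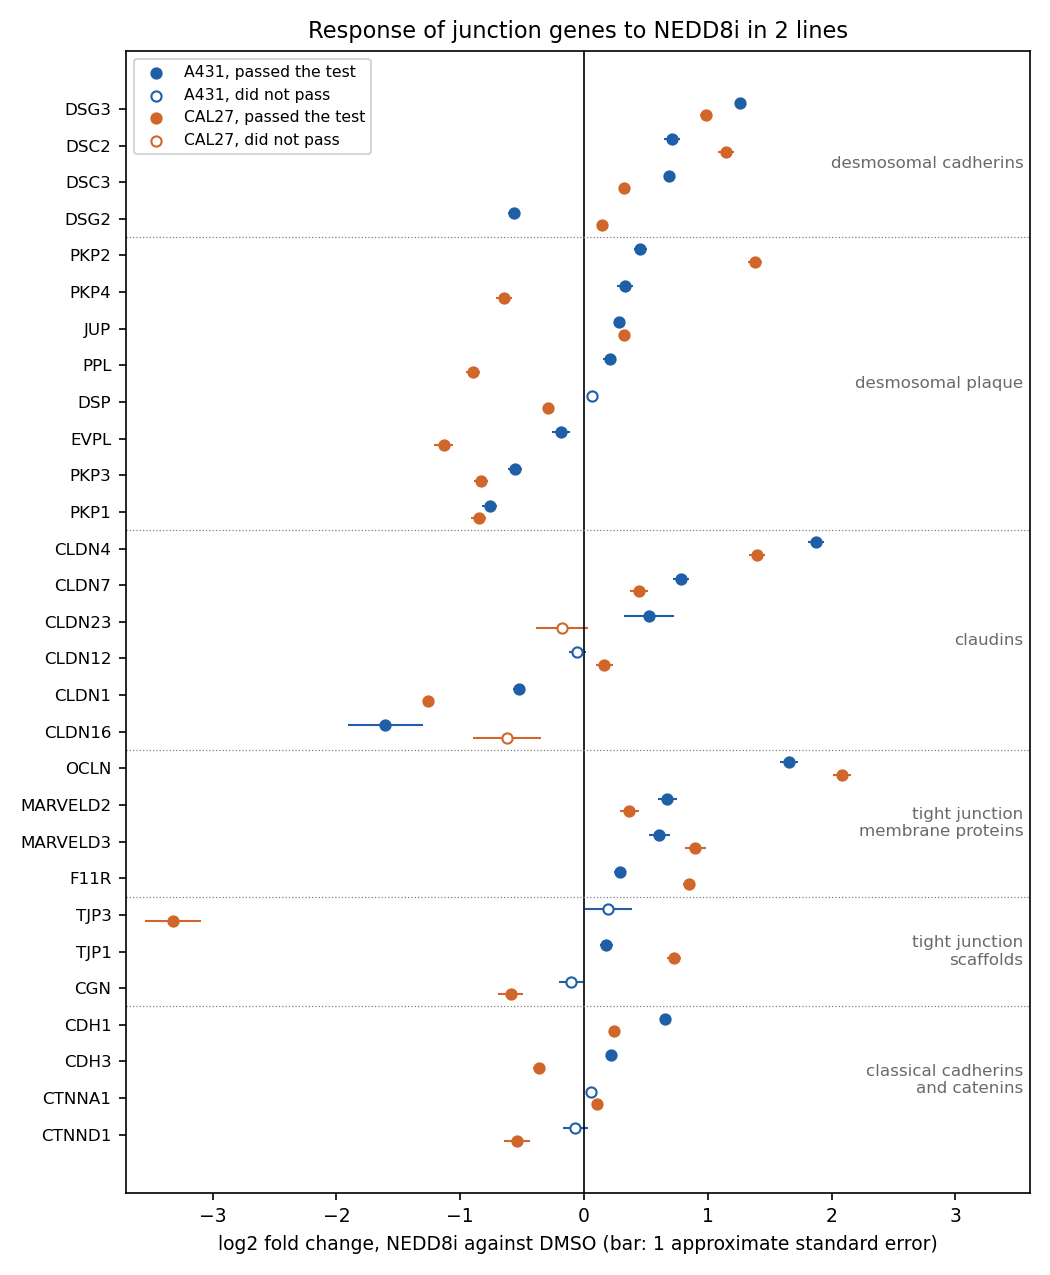
Log2 fold change of NEDD8i against DMSO (x axis) for the 29 tested junction genes that reached 1 CPM in both lines, grouped by role, with A431 in blue and CAL27 in orange; filled circles passed the test and bars are 1 approximate standard error. OCLN, MARVELD2, MARVELD3 and F11R lie to the right of 0 in both lines, the claudins and plaque genes on both sides, and TJP3 in CAL27 lies farthest to the left at -3.32.

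Upstream sequence was read for CLDN1, DSG3 and TJP3 as examples of a fall in both lines, a rise in both lines and a fall in CAL27. The lines give the 250 bases before an annotated transcript start from RefSeq (GRCh38.p14), 5′ to 3′ on the gene's own strand, at chr3:190322447-190322696 (minus strand) for CLDN1, chr18:31447491-31447740 (plus strand) for DSG3 and chr19:3708134-3708383 (plus strand) for TJP3. All 3 windows hold no exonic base. Capitals mark matches on either strand to the GC box GGGCGG, known to be bound by SP and KLF factors, or to the core ACGTG, known to be bound by HIF.
CLDN1: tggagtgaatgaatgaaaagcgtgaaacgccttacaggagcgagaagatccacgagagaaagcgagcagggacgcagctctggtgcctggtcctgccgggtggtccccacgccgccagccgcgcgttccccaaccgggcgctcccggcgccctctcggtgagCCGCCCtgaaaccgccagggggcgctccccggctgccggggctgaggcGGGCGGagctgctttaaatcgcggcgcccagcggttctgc
DSG3: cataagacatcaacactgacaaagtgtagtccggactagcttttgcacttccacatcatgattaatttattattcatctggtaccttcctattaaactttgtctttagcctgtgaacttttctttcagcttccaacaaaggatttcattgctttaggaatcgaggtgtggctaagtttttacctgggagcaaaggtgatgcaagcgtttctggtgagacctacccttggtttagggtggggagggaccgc
TJP3: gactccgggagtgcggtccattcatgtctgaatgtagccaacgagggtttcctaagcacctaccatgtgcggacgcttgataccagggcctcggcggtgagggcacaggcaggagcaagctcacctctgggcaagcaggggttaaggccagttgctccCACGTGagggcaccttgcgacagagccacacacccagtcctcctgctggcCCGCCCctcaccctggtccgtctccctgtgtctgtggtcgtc
The CLDN1 window holds 2 GC boxes, the TJP3 window 1 GC box and 1 CACGTG, whose palindrome counts on both strands, and the DSG3 window none of the 7 motifs searched. A second RefSeq start of TJP3 has a GC box and a CAGGTG in its window. The libraries read the opposite ends of transcripts, so the start in use was not measured.

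Promoters of 36 of the 52 genes were found in the RefSeq table. The motifs searched, on both strands, were the GC box, ACGTG, the E-box CAGGTG known to be bound by SNAI and ZEB repressors, the AP-1 site TGANTCA, the antioxidant response element TGACNNNGC, AACNGGTT for GRHL factors and the TATA box TATAAA. They stand in 42.6% (GC box), 18.5% (ACGTG), 17.5% (E-box), 6.57% (AP-1), 10.9% (antioxidant response element), 1.49% (GRHL) and 10.7% (TATA box) of all 35116 promoter windows of that length. Of the 13 genes that rose in both lines, 9 had 16 such windows. A GC box was in 10 of these windows, an E-box in 6 (of CLDN7, DSC2, JUP, OCLN and TJP1) and ACGTG in 3. An AP-1 site (CLDN4) and an antioxidant response element (CLDN7) were in 1 each, and a GRHL site or TATA box in none. The tested junction genes together had 43 windows, with a GC box in 28, an E-box in 10 and ACGTG in 9. Genes that fell in both lines had 2 windows, both with a GC box (CLDN1 and PKP1). These counts describe letters in short windows and no binding was measured.

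The desmosomal cadherins rose in both lines with 1 exception. Of the 4 tested, 3 rose in both (DSG3, DSC2 and DSC3), against 13.3% of all genes, while DSG2 fell in A431. Values in parentheses here and further on are log2 fold changes of NEDD8i against DMSO, or their difference as CAL27 minus A431, each ± 1 approximate standard error. DSG3 (ENSG00000134757.5, chr18:31447741-31478702, plus strand, GRCh38), the desmoglein of the basal layers and the target of autoantibodies in pemphigus vulgaris, had 549 and 551 CPM in A431 under NEDD8i, against 222 and 237 CPM under DMSO. In CAL27, DSG3 had 268 and 278 CPM under NEDD8i, against 139 and 137 CPM under DMSO. The NEDD8i libraries lay well above the DMSO libraries in both lines, without overlap (1.26 ± 0.05, adjusted p = 4.5e-13 in A431, and 0.99 ± 0.05, adjusted p = 7.79e-12 in CAL27). The rise was smaller in CAL27 (CAL27 minus A431 -0.28 ± 0.06, adjusted p = 0.00248).

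DSG2, the desmoglein also found in simple epithelia, had 514 and 516 CPM in A431 under NEDD8i, against 754 and 775 CPM under DMSO. In CAL27, DSG2 had 283 and 264 CPM under NEDD8i, against 247 and 246 CPM under DMSO. It was lower under NEDD8i in A431 (-0.57 ± 0.04, adjusted p = 6.76e-09) and slightly higher in CAL27 (0.15 ± 0.04, adjusted p = 0.00802), and the responses differed (0.72 ± 0.06, adjusted p = 7.11e-08). The small CAL27 rise did not pass without CAL27 NEDD8i replicate 1 (adjusted p = 0.0941) or with unscaled library sizes (adjusted p = 0.205). DSG2 and DSG3 lie next to each other on chromosome 18, 19.5 kb apart on the same strand, and were called in opposite directions in A431. Of the counts of both genes together, DSG3 took 51.6% and 51.6% in A431 under NEDD8i, against 22.8% and 23.4% under DMSO. In CAL27 it took 48.6% and 51.3% under NEDD8i, against 36.0% and 35.8% under DMSO. Such shares are of counts, not scaled by length, and their exact (Clopper-Pearson) 95% intervals reach at most 0.863 percentage points to either side, for counting error only.

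The desmocollins are the partners of the desmogleins across the gap between cells. DSC2, which is expressed widely, had 64.9 and 67.2 CPM in A431 under NEDD8i, against 39.8 and 40.8 CPM under DMSO. In CAL27, DSC2 had 90.04 and 95.1 CPM under NEDD8i, against 41.8 and 41.9 CPM under DMSO. The 2 DMSO groups were alike and the CAL27 NEDD8i libraries highest, so that the rise was larger in CAL27 (1.15 ± 0.06, adjusted p = 9.49e-11) than in A431 (0.71 ± 0.06, adjusted p = 8.07e-08, difference 0.43 ± 0.09, adjusted p = 0.00111). DSC3, the desmocollin of basal keratinocytes, showed the reverse order. It had 436 and 435 CPM in A431 under NEDD8i, against 269.9 and 271 CPM under DMSO. In CAL27, DSC3 had 172 and 167 CPM under NEDD8i, against 134 and 138 CPM under DMSO. Its groups did not overlap in either line, and it rose more in A431 (0.69 ± 0.04, adjusted p = 7.12e-10) than in CAL27 (0.32 ± 0.04, adjusted p = 7.12e-06, difference -0.37 ± 0.06, adjusted p = 0.000147). The share of DSC2 in the counts of both genes was 34.3% and 36.2% in CAL27 under NEDD8i, against 23.8% and 23.3% under DMSO, and 12.9% and 13.4% in A431 under NEDD8i, against 12.9% and 13.1% under DMSO. DSG1 and DSC1, the desmosomal cadherins of the upper epidermis, and DSG4 of the hair follicle were too low to test in either line.

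All 8 plaque genes were tested, and they moved in both directions. In A431, 4 rose and 3 fell, and in CAL27, 2 rose and 6 fell. These are 87.5% called in A431 and 100% in CAL27, against 43.6% and 49.6% of all genes. All 8 averaged at least 10 CPM, and of all such genes 67% were called in A431 and 73.4% in CAL27. Plakoglobin (JUP), which binds the tails of desmosomal and classical cadherins, rose in both lines (0.28 ± 0.04, adjusted p = 1.22e-05 in A431, and 0.32 ± 0.04, adjusted p = 1.85e-06 in CAL27, difference 0.04 ± 0.05, adjusted p = 0.638). It had 1340.4 and 1282 CPM in the A431 NEDD8i libraries, against 1086 and 1074 CPM in the DMSO libraries. Its CAL27 libraries held 853 and 820.0 CPM under NEDD8i, against 682 and 657 CPM under DMSO. Desmoplakin, the link to keratin, had 421 and 431.4 CPM in A431 under NEDD8i, against 394 and 422 CPM under DMSO (0.06 ± 0.04, adjusted p = 0.237). It fell in CAL27 (-0.29 ± 0.04, adjusted p = 1.43e-05), to 764 and 744 CPM under NEDD8i, against 922 and 919 CPM under DMSO, and the difference between the lines passed (CAL27 minus A431 -0.35 ± 0.06, adjusted p = 0.000146).

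The plakophilins, armadillo proteins that strengthen the plaque, moved apart, with PKP1 and PKP3 lower and PKP2 higher under NEDD8i in both lines. PKP1, the plakophilin of suprabasal keratinocytes, fell in both lines by amounts that did not differ past the threshold (-0.76 ± 0.06, adjusted p = 1.48e-08 in A431, -0.85 ± 0.06, adjusted p = 2.66e-09 in CAL27, difference -0.09 ± 0.09, adjusted p = 0.481). It had 191 and 195 CPM in A431 under NEDD8i, against 324 and 329.9 CPM under DMSO. In CAL27, PKP1 had 118 and 99.6 CPM under NEDD8i, against 195 and 196 CPM under DMSO. Without CAL27 NEDD8i replicate 1, the higher of its pair, the difference passed (-0.23, adjusted p = 0.0122). PKP3, which occurs throughout stratified epithelium, also fell in both lines, to 162 and 158 CPM in A431 under NEDD8i, against 253 and 218 CPM under DMSO (-0.56 ± 0.06, adjusted p = 4.72e-07). In CAL27 it fell to 139 and 142 CPM under NEDD8i, against 249 and 252 CPM under DMSO (-0.83 ± 0.06, adjusted p = 1.95e-09). Its larger fall in CAL27 (-0.27 ± 0.08, adjusted p = 0.0154) did not pass without A431 DMSO replicate 2 (adjusted p = 0.14), A431 NEDD8i replicate 1 (0.0731), CAL27 DMSO replicate 1 (0.0541) or CAL27 DMSO replicate 2 (0.0739).

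PKP2 (ENSG00000057294.16, chr12:32790755-32896777, minus strand), the most widely expressed plakophilin and a gene of inherited cardiomyopathy, rose. It had 139 and 133 CPM in A431 under NEDD8i, against 98.2 and 100.4 CPM under DMSO. In CAL27, PKP2 had 203 and 198 CPM under NEDD8i, against 79.4 and 74.6 CPM under DMSO. CAL27 was the lower line under DMSO and the higher line under NEDD8i, and its rise of 2.604-fold (1.38 ± 0.05, adjusted p = 7.6e-13) exceeded that of A431 (0.45 ± 0.05, adjusted p = 1.73e-06, difference 0.93 ± 0.07, adjusted p = 4.26e-08). PKP4, a relative found at several kinds of junction, had 84.5 and 82.9 CPM in A431 under NEDD8i, against 65.6 and 67.7 CPM under DMSO. In CAL27, PKP4 had 67.7 and 61.0 CPM under NEDD8i, against 97.2 and 104 CPM under DMSO. It rose in A431 (0.33 ± 0.07, adjusted p = 0.000503) and fell in CAL27 (-0.65 ± 0.06, adjusted p = 1.86e-07), without overlap in either line (difference -0.98 ± 0.09, adjusted p = 2.69e-07). Of the counts of all plakophilins PKP2 took 24.2% and 23.3% in A431 under NEDD8i, against 13.3% and 14.0% under DMSO, and 38.6% and 39.5% in CAL27 under NEDD8i, against 12.8% and 11.9% under DMSO. The share of PKP1 was 33.1% and 34.4% in A431 under NEDD8i, against 43.8% and 46.0% under DMSO, and 22.3% and 19.9% in CAL27 under NEDD8i, against 31.4% and 31.3% under DMSO.

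Periplakin and envoplakin, plakins that join desmosomes to the cornified envelope of keratinocytes, fell in CAL27. PPL had 112 and 114 CPM in CAL27 under NEDD8i, against 205 and 215 CPM under DMSO (-0.89 ± 0.06, adjusted p = 5.53e-10). In A431, PPL had 306 and 331 CPM under NEDD8i, against 261 and 291 CPM under DMSO, a small rise (0.21 ± 0.06, adjusted p = 0.00612) that did not pass without A431 DMSO replicate 1 (adjusted p = 0.084), without A431 NEDD8i replicate 2 (0.0841), with upper-quartile scaling (0.0567) or with unscaled library sizes (0.153). EVPL had 21.3 and 18.5 CPM in CAL27 under NEDD8i, against 41.6 and 45.4 CPM under DMSO (-1.13 ± 0.08, adjusted p = 1.38e-09). Its CAL27 NEDD8i libraries lay below both DMSO libraries, while in A431 it had 101 and 96.3 CPM under NEDD8i, against 109.9 and 115 CPM under DMSO. The A431 fall (-0.19 ± 0.07, adjusted p = 0.0413) was lost without any 1 of the 4 A431 libraries (adjusted p = 0.0623 without DMSO replicate 1, 0.179 without DMSO replicate 2, 0.0796 without NEDD8i replicate 1 and 0.272 without NEDD8i replicate 2) and without either CAL27 DMSO library (0.0546 without replicate 1 and 0.0565 without replicate 2). For both genes the response was lower in CAL27 than in A431 (-1.10 ± 0.08, adjusted p = 1.18e-08 for PPL, and -0.94 ± 0.10, adjusted p = 1.87e-06 for EVPL).

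**Figure D2:**
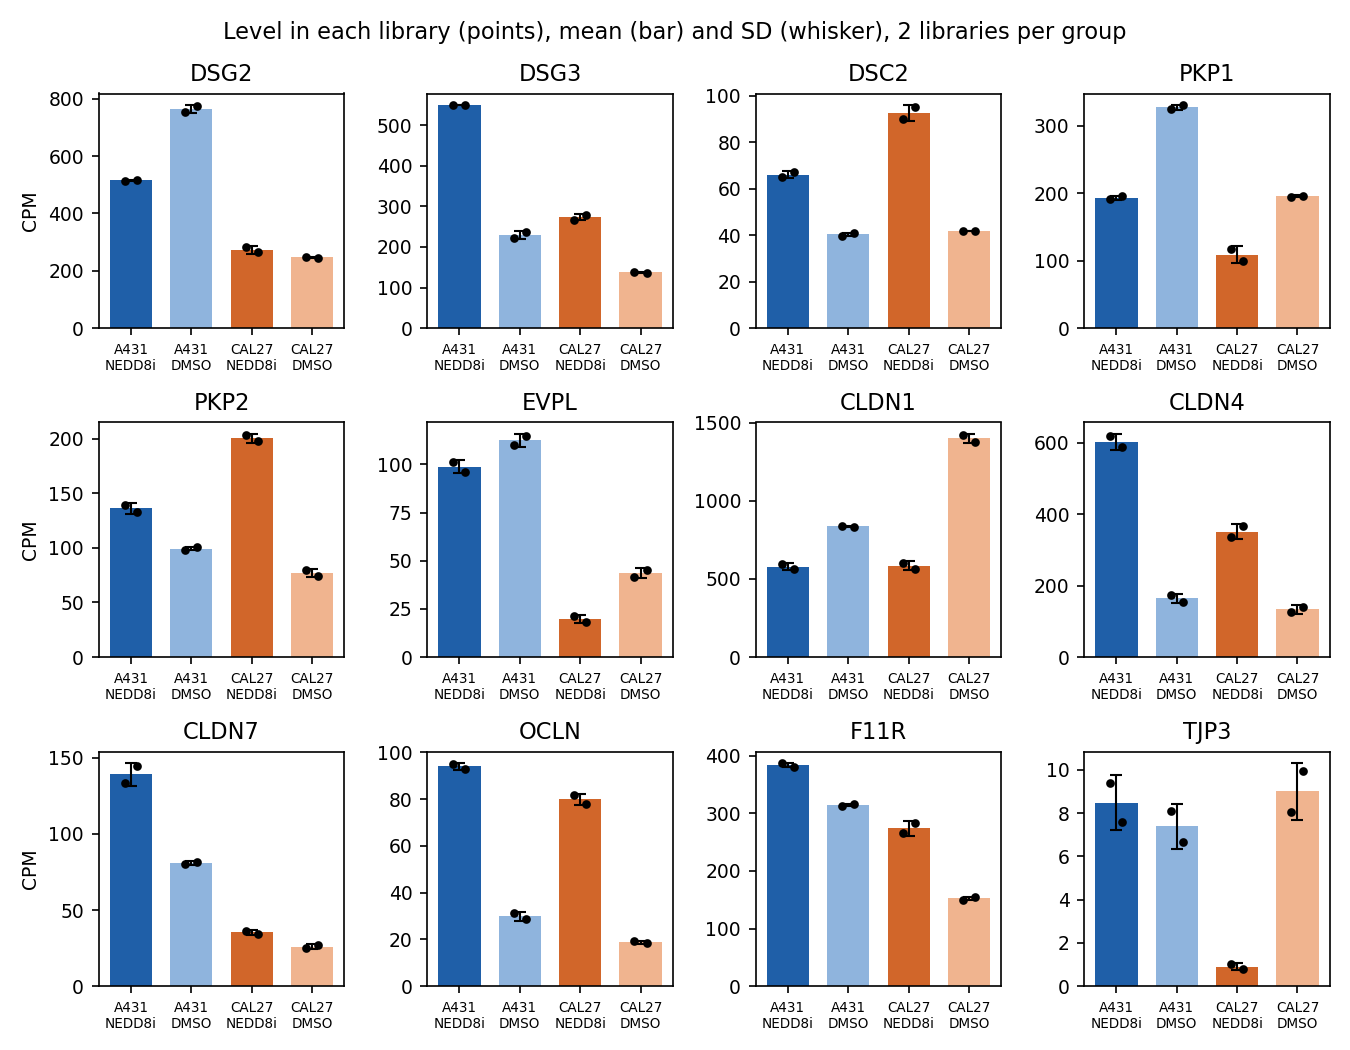
Level (CPM, y axis from 0, scaled per panel) of 12 junction genes in each library (points), with the mean (bar) and SD (whisker) of the 2 libraries of a group; dark bars are NEDD8i and light bars DMSO, blue for A431 and orange for CAL27. DSG3, CLDN4 and OCLN stand higher under NEDD8i in both lines, CLDN1 and PKP1 lower, and TJP3 is lowest in CAL27 under NEDD8i.

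Among the claudins, CLDN1 fell and CLDN4 rose in both lines. Of 24 claudins 15 were tested, of which 4 rose and 4 fell in A431, and 3 rose and 3 fell in CAL27. The called share was 53.3% in A431 and 40% in CAL27, near the 43.6% and 49.6% of all genes tested. CLDN5 and CLDN17 had no count in A431 and CLDN11 none in CAL27, so they could not be called there. CLDN1 (ENSG00000163347.6, chr3:190305707-190322446, minus strand), a barrier-forming claudin whose loss opens the epidermal barrier in mice, had 596 and 563 CPM in A431 under NEDD8i, against 838 and 834 CPM under DMSO. In CAL27, CLDN1 had 605 and 564 CPM under NEDD8i, against 1422 and 1379.9 CPM under DMSO. Under DMSO it stood higher in CAL27 than in A431, and under NEDD8i both lines reached about the same level. It fell in A431 (-0.53 ± 0.04, adjusted p = 1.75e-08) and more strongly in CAL27 (-1.26 ± 0.04, adjusted p = 1.39e-13, difference -0.73 ± 0.06, adjusted p = 5.17e-08).

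CLDN4 (ENSG00000189143.10, chr7:73827744-73832690, plus strand), a claudin that limits the passage of cations and a receptor for a Clostridium enterotoxin, went the other way. It had 618 and 586 CPM in A431 under NEDD8i, against 173 and 155 CPM under DMSO. In CAL27, CLDN4 had 336 and 365 CPM under NEDD8i, against 125 and 141 CPM under DMSO. The NEDD8i libraries lay far above the DMSO libraries in both lines, by 3.67-fold in A431 (1.88 ± 0.06, adjusted p = 2.75e-13) and by 2.63-fold in CAL27 (1.40 ± 0.06, adjusted p = 7.37e-12), with a smaller rise in CAL27 (difference -0.48 ± 0.09, adjusted p = 0.000403). Of all claudin counts, CLDN1 gave 42.8% and 42.1% in A431 under NEDD8i, against 73.6% and 74.6% under DMSO, and 56.2% and 53.1% in CAL27 under NEDD8i, against 85.2% and 83.9% under DMSO. CLDN4 gave 44.4% and 43.8% in A431 under NEDD8i, against 15.2% and 13.9% under DMSO, and 31.2% and 34.4% in CAL27 under NEDD8i, against 7.49% and 8.59% under DMSO. The groups did not overlap for either share in either line, as the plot of family make-up shows.

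**Figure D3:**
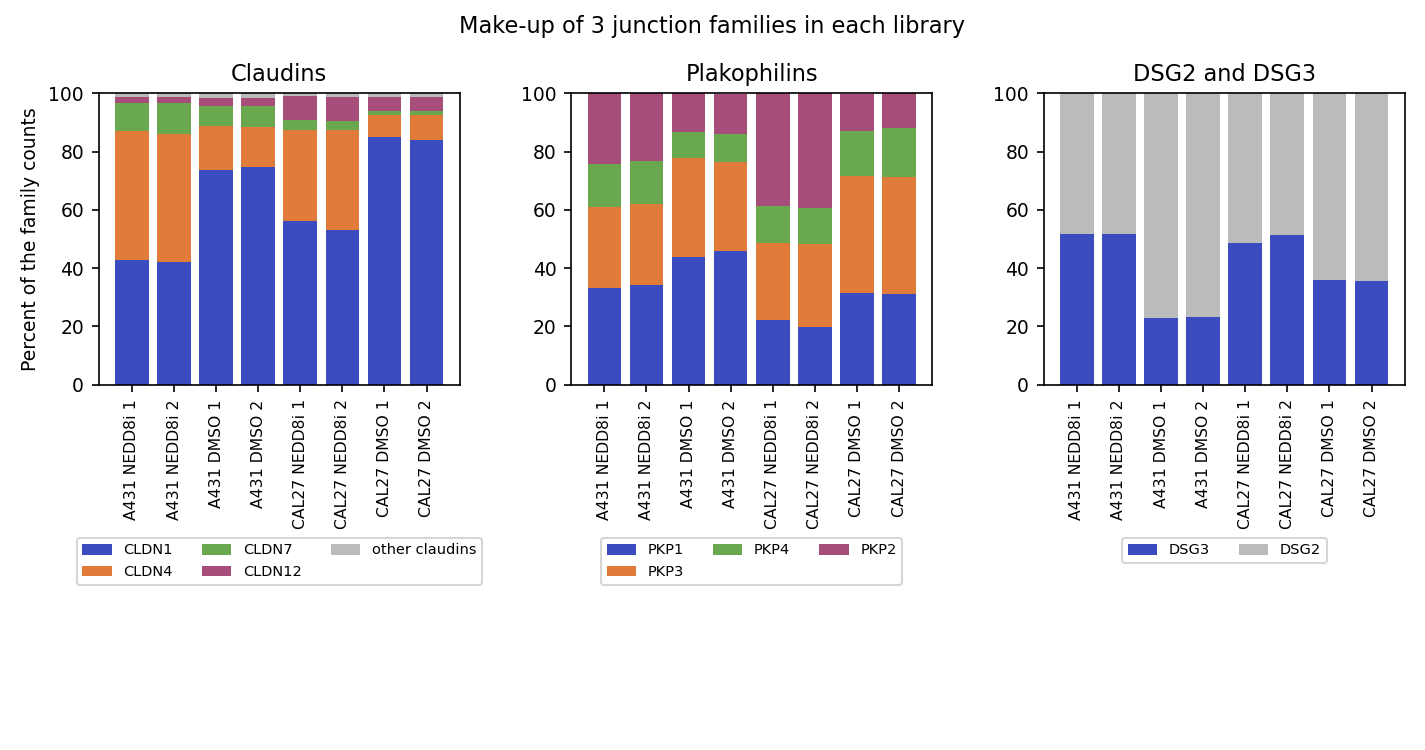
Percent of the counts of a family (y axis) taken by each member in each of the 8 libraries (x axis), for the claudins, the plakophilins and the pair DSG2 and DSG3; shares are of counts, not scaled by length. CLDN4, PKP2 and DSG3 take a larger part under NEDD8i than under DMSO in both lines, and CLDN1, PKP1, PKP3 and DSG2 a smaller one.

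CLDN7, which is found in the lateral membrane as well as in the tight junction, had 134 and 145 CPM in A431 under NEDD8i, against 80.1 and 81.7 CPM under DMSO. In CAL27, CLDN7 had 36.5 and 34.0 CPM under NEDD8i, against 24.8 and 27.0 CPM under DMSO. It rose in both lines (0.78 ± 0.07, adjusted p = 3.27e-08 in A431, and 0.44 ± 0.07, adjusted p = 4.47e-05 in CAL27). The smaller rise in CAL27 (-0.34 ± 0.10, adjusted p = 0.0112) did not pass without A431 NEDD8i replicate 2 (adjusted p = 0.0672) or CAL27 DMSO replicate 2 (0.0993). CLDN7 shares 14.9% of its exonic bases with other genes, among them ELP5, whose overlapping reads were dropped. CLDN12 ranged from 29.0 to 31.6 CPM over the A431 libraries (-0.05 ± 0.07, adjusted p = 0.592) and from 76.9 to 88.0 CPM over the CAL27 libraries, and its small CAL27 rise (0.17 ± 0.07, adjusted p = 0.0457) was lost without any 1 of the 4 CAL27 libraries (adjusted p = 0.148 without DMSO replicate 2, 0.11 without DMSO replicate 1, 0.197 without NEDD8i replicate 1 and 0.0666 without NEDD8i replicate 2) and without A431 NEDD8i replicate 2 (0.0619). CLDN23 ranged from 3.94 to 12.1 CPM, and its A431 rise (0.53 ± 0.20, adjusted p = 0.0468) was lost without A431 DMSO replicate 2 (adjusted p = 0.268), A431 NEDD8i replicate 1 (0.159) or A431 NEDD8i replicate 2 (0.0805) and with DESeq2 (0.0675).

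The other tested claudins were below 6 CPM in every library, and several fell. CLDN16, known from magnesium reabsorption in the kidney, had 1.44 and 0.728 CPM in A431 under NEDD8i, against 3.56 and 2.97 CPM under DMSO (-1.60 ± 0.30, adjusted p = 0.000325), and 3.01 and 3.49 CPM in CAL27 under NEDD8i, against 5.22 and 4.80 CPM under DMSO (-0.62 ± 0.28, adjusted p = 0.0722), which did not pass in CAL27 but did without A431 NEDD8i replicate 1 (adjusted p = 0.0432) or replicate 2 (0.0339). CLDN11, the claudin of myelin and of Sertoli cells, had 0.131 and 0.328 CPM in A431 under NEDD8i, against 2.31 and 2.81 CPM under DMSO (-3.45 ± 0.67, adjusted p = 0.000548). It had no count in any CAL27 library, and its 278 counts in the A431 DMSO libraries put it at least 102-fold lower in CAL27 than in A431 under DMSO, with 3 counts over a group as the floor. CLDN9, which lies 206 bases from CLDN6, had 0.372 and 0.234 CPM in CAL27 under NEDD8i, against 5.74 and 5.27 CPM under DMSO. In A431, CLDN9 had 0.0875 and 0 CPM under NEDD8i, against 0.243 and 0 CPM under DMSO. Its CAL27 fall of 18.2-fold (-4.18 ± 0.65, adjusted p = 3.25e-05) had an adjusted p of 0.0522 with DESeq2. The A431 response of CLDN9 was not called (-1.60 ± 1.15, adjusted p = 0.291) and its direction turned with the libraries used, with log2 fold changes of -2.54 (adjusted p = 0.0233) without A431 DMSO replicate 2, -5.87 (0.0655) without A431 NEDD8i replicate 1 and 4.225 (0.203) without A431 DMSO replicate 1. Without the last of these libraries the difference between the lines passed (-8.39, adjusted p = 0.00352), against -2.59 ± 1.57, adjusted p = 0.237 with all libraries.

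CLDN3, a neighbour of CLDN4 on chromosome 7 at a distance of 57.5 kb, did not share the rise of CLDN4. In CAL27, CLDN3 had 0.186 and 0.301 CPM under NEDD8i, against 1.11 and 0.999 CPM under DMSO, and fell (-2.10 ± 0.60, adjusted p = 0.00701), a call lost without CAL27 NEDD8i replicate 1 (adjusted p = 0.0529). In A431, CLDN3 had 0.744 and 0.637 CPM under NEDD8i, against 0.869 and 0.543 CPM under DMSO, with overlapping groups (-0.04 ± 0.56, adjusted p = 0.997). CLDN8 had 0.350 and 0.255 CPM in A431 under NEDD8i, against 1.01 and 1.78 CPM under DMSO. In CAL27, CLDN8 had 0.223 and 0.167 CPM under NEDD8i, against 0.593 and 0.393 CPM under DMSO. It fell in A431 (-2.203 ± 0.64, adjusted p = 0.01), but not past the threshold without A431 DMSO replicate 2 (adjusted p = 0.113) or A431 NEDD8i replicate 2 (0.0612), nor in CAL27 (-1.33 ± 0.66, adjusted p = 0.111). CLDN15, a pore-forming claudin of the gut, had 0.678 and 1.04 CPM in A431 under NEDD8i, against 0.313 and 0.330 CPM under DMSO. Its rise in A431 (1.42 ± 0.46, adjusted p = 0.0191) was lost without A431 DMSO replicate 1 (adjusted p = 0.0614), A431 DMSO replicate 2 (0.0508) or A431 NEDD8i replicate 2 (0.141), and in CAL27 it had 1.91 and 2.204 CPM under NEDD8i, against 1.39 and 1.24 CPM under DMSO (0.65 ± 0.41, adjusted p = 0.209). CLDN5, CLDN6, CLDN14 and CLDN17 were near 0 and were not called in either line. CLDN6 had 0.372 and 0.367 CPM in CAL27 under NEDD8i, against 0 and 0.0454 CPM under DMSO (3.82 ± 1.60, adjusted p = 0.0593). That response passed with halved counts (adjusted p = 0.017) and with CAL27 fitted alone (0.0106). Values at this level rest on few counts, and each pair of mates counts as 2.

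The other membrane proteins of the tight junction, 4 of 4 tested, rose in both lines, against 13.3% of all genes. Occludin (OCLN, ENSG00000197822.12, chr5:69492292-69558104, plus strand), which lines the strands together with claudins, had 95.1 and 92.9 CPM in A431 under NEDD8i, against 31.2 and 28.6 CPM under DMSO. In CAL27, OCLN had 81.6 and 78.1 CPM under NEDD8i, against 19.2 and 18.3 CPM under DMSO. These were the largest rises among the junction genes above 10 CPM in CAL27, at 4.25-fold (2.09 ± 0.07, adjusted p = 1.84e-13), and second to CLDN4 in A431, at 3.15-fold (1.65 ± 0.07, adjusted p = 4.62e-12). The rise was larger in CAL27 (0.43 ± 0.10, adjusted p = 0.00243). MARVELD2, tricellulin, which seals the corners where 3 cells meet, lies next to OCLN on chromosome 5 and also rose in both lines (0.67 ± 0.08, adjusted p = 2.04e-06 in A431, and 0.36 ± 0.08, adjusted p = 0.000748 in CAL27). It had 43.6 and 47.8 CPM in A431 under NEDD8i, against 27.6 and 29.7 CPM under DMSO. In CAL27, MARVELD2 had 53.7 and 51.6 CPM under NEDD8i, against 39.6 and 42.1 CPM under DMSO.

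The groups of MARVELD2 did not overlap in either line. Its smaller rise in CAL27 (-0.31 ± 0.11, adjusted p = 0.0405) was lost without A431 DMSO replicate 1 or A431 NEDD8i replicate 2. It was lost too without either CAL27 DMSO library or without CAL27 NEDD8i replicate 2. Nor did it pass with DESeq2 (adjusted p = 0.0881), RLE scaling (0.0687), upper-quartile scaling (0.116) or unscaled library sizes (0.0558). MARVELD3, the third protein of this family, ranged from 35.1 to 35.4 CPM in A431 under NEDD8i, against 22.6 to 23.6 CPM under DMSO, and from 42.5 to 43.6 CPM in CAL27 under NEDD8i, against 21.6 to 24.5 CPM under DMSO (0.61 ± 0.09, adjusted p = 1.83e-05 in A431, and 0.90 ± 0.09, adjusted p = 1.12e-07 in CAL27). F11R, the adhesion molecule JAM-A, had 387 and 381 CPM in A431 under NEDD8i, against 313 and 315 CPM under DMSO. In CAL27, F11R had 265 and 283 CPM under NEDD8i, against 150.2 and 154 CPM under DMSO. It rose in both lines, more in CAL27 (0.85 ± 0.05, adjusted p = 5.13e-11) than in A431 (0.29 ± 0.04, adjusted p = 4.01e-05, difference 0.56 ± 0.06, adjusted p = 2.33e-06), and 38.4% of its exonic bases are shared with other genes, whose reads were dropped.

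Of the cytoplasmic scaffolds of the tight junction, TJP3 and CGN fell and TJP1 rose in CAL27, and TJP1 rose in A431. TJP3 (ZO-3, ENSG00000105289.15, chr19:3708384-3750813, plus strand) had 1.003 and 0.802 CPM in CAL27 under NEDD8i, against 8.06 and 9.94 CPM under DMSO. In A431, TJP3 had 9.39 and 7.57 CPM under NEDD8i, against 8.12 and 6.65 CPM under DMSO. The CAL27 NEDD8i libraries were far below the other 6, which overlapped, and TJP3 fell in CAL27 by 10.00-fold (-3.32 ± 0.23, adjusted p = 1.31e-09), while in A431 it was slightly higher under NEDD8i, not past the threshold (0.20 ± 0.19, adjusted p = 0.44). The difference between the lines was -3.52 ± 0.30, adjusted p = 6.96e-08.

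TJP1 (ZO-1), the scaffold to which claudins and occludin bind, had 224 and 207 CPM in CAL27 under NEDD8i, against 127 and 133 CPM under DMSO, a rise without overlap (0.73 ± 0.05, adjusted p = 4.97e-09). In A431, TJP1 had 192 and 206 CPM under NEDD8i, against 179.9 and 171 CPM under DMSO, and the small rise (0.18 ± 0.05, adjusted p = 0.0128) was lost without A431 DMSO replicate 2 (adjusted p = 0.103), without A431 NEDD8i replicate 2 (0.138) and with unscaled library sizes (0.265). The responses of TJP1 differed (0.55 ± 0.08, adjusted p = 2.53e-05). Cingulin (CGN), which connects the tight junction to myosin, fell in CAL27, to 17.1 and 16.1 CPM under NEDD8i, against 25.0 and 25.1 CPM under DMSO (-0.59 ± 0.10, adjusted p = 6.99e-05). In A431 its groups overlapped, with 26.9 and 26.1 CPM under NEDD8i, against 26.3 and 30.6 CPM under DMSO (-0.10 ± 0.10, adjusted p = 0.434), and the difference between the lines (-0.49 ± 0.14, adjusted p = 0.0106) was lost without A431 DMSO replicate 1 (adjusted p = 0.0681).

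Of the 5 classical cadherins and catenins, 2 rose and none fell past the threshold in A431, and 2 rose and 3 fell in CAL27. That is 40% called in A431 and 100% in CAL27, against 43.6% and 49.6% of all genes. CDH2 had no count in A431 and could not be called there. All 5 averaged at least 10 CPM, and of all such genes 67% were called in A431 and 73.4% in CAL27. E-cadherin (CDH1), the main adhesion molecule of epithelia, had 637 and 641 CPM in A431 under NEDD8i, against 406 and 405 CPM under DMSO. In CAL27, CDH1 had 428 and 397 CPM under NEDD8i, against 342 and 354 CPM under DMSO. It rose without overlap in both lines, more in A431 (0.66 ± 0.04, adjusted p = 1.64e-09) than in CAL27 (0.25 ± 0.04, adjusted p = 0.000133, difference -0.41 ± 0.06, adjusted p = 4.99e-05). P-cadherin (CDH3), the cadherin of basal epithelial cells, lies 37.0 kb from CDH1 on chromosome 16 and took opposite directions in the lines. It had 571 and 562 CPM in A431 under NEDD8i, against 489.5 and 482 CPM under DMSO. In CAL27, CDH3 had 389.6 and 355 CPM under NEDD8i, against 477 and 484 CPM under DMSO. It rose slightly in A431 (0.22 ± 0.04, adjusted p = 0.000591) and fell in CAL27 (-0.37 ± 0.05, adjusted p = 2.24e-06), without overlap (difference -0.59 ± 0.06, adjusted p = 1.35e-06).

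N-cadherin (CDH2), the cadherin of nerve and mesenchyme, separated the lines. It had no count in any of the 4 A431 libraries and 26.5 and 25.8 CPM in CAL27 under NEDD8i, against 31.6 and 34.0 CPM under DMSO. With 3 counts over a group as the floor, it was at least 1198-fold higher in CAL27 than in A431 under DMSO and at least 877-fold higher under NEDD8i. With both mates of a pair counted, such bounds are too large. Its CAL27 fall (-0.33 ± 0.11, adjusted p = 0.0272) was lost without any 1 of the 4 CAL27 libraries (adjusted p = 0.0901 without DMSO replicate 1, 0.248 without DMSO replicate 2, 0.0732 without NEDD8i replicate 1 and 0.125 without NEDD8i replicate 2) and with DESeq2 (0.0784). The catenin CTNND1 (p120), which holds cadherins at the membrane, had 12.6 and 13.7 CPM in CAL27 under NEDD8i, against 17.9 and 20.4 CPM under DMSO (-0.54 ± 0.10, adjusted p = 0.00029). In A431, CTNND1 had 25.1 and 26.1 CPM under NEDD8i, against 27.2 and 26.7 CPM under DMSO, with NEDD8i below DMSO by little (-0.07 ± 0.10, adjusted p = 0.628). The difference of CTNND1 (-0.47 ± 0.14, adjusted p = 0.0178) was lost without A431 DMSO replicate 2 (adjusted p = 0.0558), A431 NEDD8i replicate 2 (0.0589), CAL27 DMSO replicate 2 (0.136) or CAL27 NEDD8i replicate 1 (0.0522), and 59.0% of its exonic bases are shared with other genes. CTNNA1, alpha-catenin, ranged from 447 to 478 CPM over the A431 libraries (0.06 ± 0.04, adjusted p = 0.262) and from 453 to 493 CPM over the CAL27 libraries, where its rise (0.11 ± 0.04, adjusted p = 0.0333) was lost without any 1 of the 4 CAL27 libraries (adjusted p = 0.0568 without DMSO replicate 1, 0.0989 without DMSO replicate 2, 0.0565 without NEDD8i replicate 1 and 0.0581 without NEDD8i replicate 2) and without A431 NEDD8i replicate 2 (0.0532).

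The difference between the lines in the response was tested directly for all 40 genes. CDH2, CLDN5 and CLDN17 had no count in A431 and CLDN11 none in CAL27, so they could not pass. Of the 40 genes, 22 passed, against 34.0% of all genes tested. Of these, 6 had the higher response in CAL27 and 16 the lower, where 14.2% of all genes were called higher and 19.8% lower, and the median difference was -0.28 beside -0.04 for all genes tested. Among genes averaging at least 10 CPM, 21 of 27 passed, against 56.7%. The 6 with the higher response in CAL27 were PKP2, DSG2, F11R, TJP1, DSC2 and OCLN. A difference of at least 2-fold was found for 2 genes, TJP3 and PPL, against 10.8% of all genes. Of the 4 genes called in opposite directions, PKP4, PPL and CDH3 rose in A431 and fell in CAL27 and DSG2 did the reverse, with the calls of PPL in A431 and of DSG2 in CAL27 subject to the libraries named above.

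**Figure D4:**
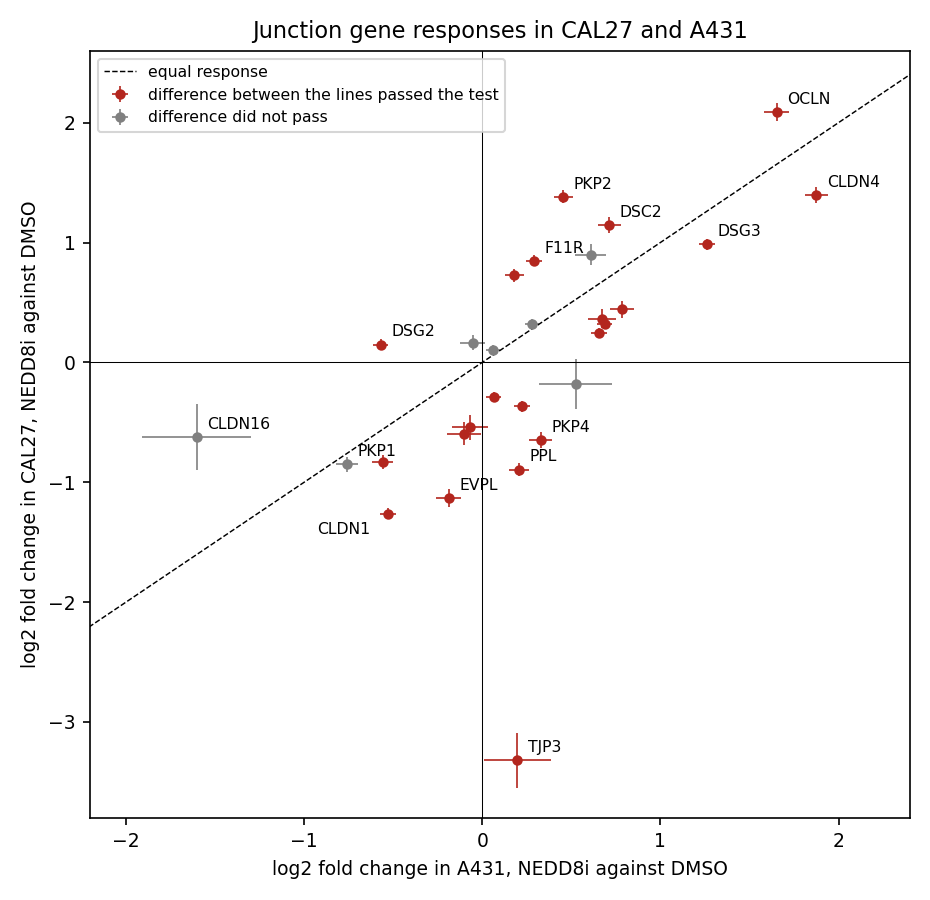
Log2 fold change of NEDD8i against DMSO in CAL27 (y axis) against that in A431 (x axis) for the 29 tested junction genes that reached 1 CPM in both lines, with 1 approximate standard error as bars; red points are genes whose difference between the lines passed the test and the broken line marks equal responses. OCLN, DSG3 and CLDN4 lie in the upper right, CLDN1 and PKP1 in the lower left, and TJP3 far below the line of equal response.

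Under DMSO the lines were also compared with each other. Of the 40 tested genes 25 were called between CAL27 and A431, against 58.9% of all genes tested, a share close to the background, with 8 higher and 17 lower in CAL27, where 29.9% of all genes were called higher and 29.0% lower. DSG2 was lower in CAL27 (log2 fold change of CAL27 against A431 -1.63 ± 0.04, adjusted p = 3.16e-15), as were CLDN7 (-1.64 ± 0.07, adjusted p = 1.68e-12), EVPL (-1.37 ± 0.07, adjusted p = 3.39e-11) and F11R (-1.05 ± 0.05, adjusted p = 2.04e-12). DSP (1.17 ± 0.04, adjusted p = 1.58e-13), CLDN12 (1.35 ± 0.07, adjusted p = 1.65e-11) and CLDN1 (0.74 ± 0.04, adjusted p = 8.24e-11) were higher in CAL27. DSC2 (0.05 ± 0.06, adjusted p = 0.517), CDH3 (-0.02 ± 0.04, adjusted p = 0.792) and TJP3 (0.29 ± 0.19, adjusted p = 0.205) were not called between the lines under DMSO. This contrast shares its DMSO libraries with those of the responses, so that a gene's response and its starting level are not independent measures.

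Genes outside the 52 that serve the same junctions also moved in both directions. Of 22 other tight junction and polarity genes 19 were tested, with 8 higher and 5 lower in A431 and 9 higher and 5 lower in CAL27. The called share was 68.4% in A431 and 73.7% in CAL27, against 43.6% and 49.6% of all genes. AMOTL2, an angiomotin that binds polarity and Hippo pathway proteins, had 348 and 357 CPM in A431 under NEDD8i, against 141 and 132 CPM under DMSO (1.37 ± 0.05, adjusted p = 5.7e-13). In CAL27, AMOTL2 had 475 and 469 CPM under NEDD8i, against 128 and 138 CPM under DMSO (1.83 ± 0.05, adjusted p = 9.69e-15), again without overlap. PARD6B, a polarity protein, had 32.1 and 32.4 CPM in CAL27 under NEDD8i, against 6.30 and 5.72 CPM under DMSO (2.43 ± 0.11, adjusted p = 6.65e-12), and in A431 27.0 and 29.1 CPM under NEDD8i, against 23.4 and 20.6 CPM under DMSO (0.35 ± 0.10, adjusted p = 0.00903). ILDR1, which marks tricellular contacts with tricellulin, fell in both lines (-0.58 ± 0.19, adjusted p = 0.0205 in A431, and -2.01 ± 0.29, adjusted p = 1.58e-05 in CAL27). It had 12.1 and 13.1 CPM in A431 under NEDD8i, against 16.8 and 21.0 CPM under DMSO. In CAL27, ILDR1 had 0.409 and 0.568 CPM under NEDD8i, against 1.44 and 2.50 CPM under DMSO. CGNL1, a relative of cingulin, was near 0, with 0 and 0.182 CPM in A431 under NEDD8i, against 1.08 and 2.41 CPM under DMSO (-4.15 ± 1.06, adjusted p = 0.00398), and fell in CAL27 too (-2.73 ± 1.03, adjusted p = 0.0366). MAGI1, a scaffold, fell in A431 (-1.33 ± 0.27, adjusted p = 0.000594) and AMOTL1 rose in CAL27 (1.11 ± 0.05, adjusted p = 9.54e-12).

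Of 14 other adherens junction genes 11 were tested, with 5 higher and 4 lower in A431 and 3 higher and 5 lower in CAL27. Their called share was 81.8% in A431 and 72.7% in CAL27, against 43.6% and 49.6% of all genes. NECTIN2, an immunoglobulin-like adhesion molecule, had 239 and 228 CPM in A431 under NEDD8i, against 90.7 and 92.0 CPM under DMSO (1.35 ± 0.05, adjusted p = 1.51e-12). In CAL27, NECTIN2 had 110.4 and 113 CPM under NEDD8i, against 64.7 and 60.9 CPM under DMSO (0.83 ± 0.05, adjusted p = 6.04e-10), and rose in both lines. NECTIN1 fell in CAL27, to 98.8 and 96.3 CPM under NEDD8i, against 199.9 and 191 CPM under DMSO (-1.002 ± 0.04, adjusted p = 5.59e-12). The p120-like catenin ARVCF fell there too (-1.65 ± 0.22, adjusted p = 5.48e-06). Of 5 other desmosome and cornified envelope genes, all tested, 2 rose and none fell past the threshold in A431, and 2 rose and 1 fell in CAL27. These are 40% called in A431 and 60% in CAL27, near the 43.6% and 49.6% of all genes. TGM1, the transglutaminase that links cornified envelope proteins, had 21.5 and 23.0 CPM in A431 under NEDD8i, against 5.42 and 5.24 CPM under DMSO (2.06 ± 0.21, adjusted p = 3.61e-07), and involucrin (IVL), a substrate of that enzyme, 8.18 and 11.2 CPM in CAL27 under NEDD8i, against 2.19 and 2.54 CPM under DMSO (2.03 ± 0.17, adjusted p = 2.27e-08). TGM1 was called in A431 alone and IVL in CAL27 alone, and none of these genes rose in both lines. KAZN, kazrin, a partner of periplakin, rose in A431 (1.05 ± 0.12, adjusted p = 1.32e-06) and fell in CAL27 (-0.65 ± 0.11, adjusted p = 0.000103).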

How the data were processed

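Each library has 1 deposited table of whole-number read counts for genes. STAR aligned the reads to GRCh38, per the submitters' processing notes. Counting, per the file headers, used featureCounts 2.0.8 over exons of the basic GENCODE 39 annotation, without regard to strand, with reads over more than 1 gene dropped and both mates of a pair counted. Of the counts from 1 to 40, 70.2% to 76.7% were even in each library. Counting errors are therefore too small, and 9 of the 52 genes, with over 10% of their exonic bases shared with other genes, may be undercounted. The QuantSeq FWD kit, per the labels' protocols, reads 3' ends. For the inhibitor's identity and dose and the STAR version, nothing is given in the sources used here.

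Levels are CPM over library sizes scaled by TMM (factors 0.9321 to 1.064). edgeR 4.0.16 (R 4.3.3) fitted 1 quasi-likelihood model to 18738 genes kept by filterByExpr, with a mean for each of the 4 groups, 4 residual and 12.3 prior degrees of freedom. It gave the NEDD8i response of each line, the difference of both responses (CAL27 minus A431), and the difference of the DMSO groups of both lines. Benjamini-Hochberg adjustment ran over the 18738 genes, and an adjusted p under 0.05 made a call. Standard errors are approximate, the log2 fold change divided by the root of its F statistic. No library repeats another, since replicates differed beyond sampling noise, with chi-square over degrees of freedom of 6.54 to 14.1. The procedure was tested on simulated data. Alternatives were DESeq2 1.42.0, other scalings and filters, halved counts, 1 line alone, a replicate block and leaving out each library.

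The genes and lists were chosen with earlier results of these data known, so they are no independent support for a pattern. Genes called with at least a 2-fold change in either line, or for the difference, are given in full, and genes outside the 52 come from fixed lists, where those with at least a 2-fold called change are named. Some of these genes, 1 of the 52 among them, are counted where lists are summed but are not reported here. The counts among genes averaging at least 10 CPM were chosen after seeing the data. Motifs were searched in RefSeq windows of 250 bases before transcript starts. No sequence is shown for windows that hold exons.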

Additional observations from a re-analysis of the deposited data

Results flagged for a closer look

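The response to NEDD8i differed between the lines, by the test of the difference itself (edgeR, adjusted over all genes tested), for 22 of the 40 tested junction genes, against 34.0% of all genes tested. CDH2, CLDN5 and CLDN17 had no count in A431 and CLDN11 none in CAL27, so they could not pass. All differences are CAL27 minus A431 on the log2 scale. The largest negative difference was that of TJP3 at -3.52, with PPL at -1.1, PKP4 at -0.977, EVPL at -0.945 and CLDN1 at -0.732 following. The plakins and PKP4 are plaque proteins of the desmosome. Smaller negative differences were those of CDH3 (-0.589), CGN (-0.491), CLDN4 (-0.48), CTNND1 (-0.471), CDH1 (-0.41), DSC3 (-0.366), DSP (-0.352), CLDN7 (-0.34), MARVELD2 (-0.309), DSG3 (-0.276) and PKP3 (-0.275). Differences were positive for PKP2 (0.927), DSG2 (0.718), F11R (0.558), TJP1 (0.547), DSC2 (0.434) and OCLN (0.433). Those of CGN, CTNND1, CLDN7, MARVELD2 and PKP3 did not pass without at least 1 of the libraries. That of MARVELD2 also did not pass with DESeq2 or any other scaling, nor that of PKP3 with upper-quartile scaling. No sample was set apart by the comparison of samples within a group, since groups of 2 were too small for it.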

How the results depend on the processing

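Depth, at 49037868 counts or more, limits the claudins and scaffolds near 1 CPM or below. Among the alternatives run, the number of junction genes called was 23 to 26 in A431, 29 to 33 in CAL27, 21 to 25 for the difference and 24 to 28 between the lines under DMSO. Leaving out 1 library at a time gave 20 to 26, 25 to 32, 19 to 24 and 24 to 27 in the same order of comparisons. Over all genes the counts were 7987 to 8422 in A431, 9008 to 9788 in CAL27, 6212 to 6541 for the difference and 9707 to 11146 between the lines, and 6864 to 8354, 7766 to 9591, 5240 to 6023 and 9438 to 11131 without 1 library. Where a fit left 1 library in a group, that library was assumed to vary like the other groups. Library sizes alone, without TMM factors, moved the median log2 fold change of all genes by -0.10 in A431, and 41.6% of all A431 calls were then higher, against 51.7% with TMM. Among the junction genes 15 were then higher and 8 lower in A431, against 18 and 8 with TMM, and 14 higher and 15 lower in CAL27, against 17 and 14. The summed level of the junction genes was then 7637 CPM in A431 under NEDD8i, against 8160 CPM with TMM, and 6813 CPM in CAL27 under DMSO, against 6422 CPM. For single genes, 1266 results stayed called or stayed uncalled under other settings, 28 passed newly and 25 no longer passed. More results lost their call than gained one when a library was left out. Results that were not called could change sign, as that of CLDN9 in A431 did without a library. No result changed direction while called. Same-numbered libraries did not deviate together (correlation of deviations 0.0056 in A431 and -0.030 in CAL27), so no pairing by replicate number was detected. With 2 libraries in a group this check is weak, and whether such libraries were prepared together is not known. With the replicate number as a block, 26 junction genes were called in A431, 30 in CAL27, 23 for the difference and 26 between the lines, and 8096, 9217, 6416 and 9707 of all genes. Some lost or new calls under the block were CLDN12 in CAL27 (adjusted p = 0.0545), CLDN23 for the difference (0.0251) and CLDN8 between the lines (0.314). The cause of these shifts was not tested.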

Other observations

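Gap junction genes, which encode the connexins of channels between neighbouring cells, were measured in the same libraries, and 4 of them are given here, with no count over the family. Values in parentheses are log2 fold changes of NEDD8i against DMSO ± 1 approximate standard error. GJB2 had 180.4 and 194 CPM in A431 under NEDD8i, against 46.6 and 56.2 CPM under DMSO (1.87 ± 0.07, adjusted p = 1.16e-12), and 125 and 122 CPM in CAL27 under NEDD8i, against 129 and 128 CPM under DMSO (-0.07 ± 0.07, adjusted p = 0.465). Its NEDD8i and DMSO libraries lay apart in A431 and close together in CAL27. GJB6 rose in A431 (1.61 ± 0.13, adjusted p = 1.44e-08) and fell in CAL27 (-1.15 ± 0.14, adjusted p = 2.26e-06), while GJB5 (1.13 ± 0.08, adjusted p = 3.97e-09 in A431, and 1.55 ± 0.08, adjusted p = 4.16e-11 in CAL27) rose in both. GJA1 had 0 and 0.0728 CPM in A431 under NEDD8i, against 0 and 0 CPM under DMSO, and 38.5 and 34.0 CPM in CAL27 under NEDD8i, against 35.0 and 36.4 CPM under DMSO.

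Of 17 transcription factors known to act on junction genes 15 were tested, with 6 higher and 5 lower in A431 and 4 higher and 7 lower in CAL27. Among them 73.3% were called in each line, against 43.6% of all genes in A431 and 49.6% in CAL27. GRHL3, a grainyhead factor of the epidermal barrier, had 103 and 104 CPM in A431 under NEDD8i, against 31.3 and 29.9 CPM under DMSO (1.76 ± 0.11, adjusted p = 6.43e-10), and 28.0 and 25.5 CPM in CAL27 under NEDD8i, against 1.82 and 0.969 CPM under DMSO (4.30 ± 0.15, adjusted p = 2.97e-13). GRHL2, known to activate CLDN4 and CDH1, fell in both lines (-0.62 ± 0.06, adjusted p = 1.85e-07 in A431, and -1.45 ± 0.06, adjusted p = 2.51e-12 in CAL27). OVOL1, a factor of epithelial differentiation, rose in both (1.57 ± 0.11, adjusted p = 1.84e-09 in A431, and 1.40 ± 0.12, adjusted p = 1.94e-08 in CAL27), and GRHL1 rose in A431 (1.29 ± 0.13, adjusted p = 2.06e-07). OVOL2, a relative of OVOL1, fell in both (-1.12 ± 0.23, adjusted p = 0.000795 in A431, and -0.69 ± 0.22, adjusted p = 0.0169 in CAL27). SNAI2, a repressor of CDH1, fell in both (-1.04 ± 0.08, adjusted p = 8.52e-09 in A431, and -0.79 ± 0.08, adjusted p = 1.42e-07 in CAL27), as did ELF3 (-0.96 ± 0.05, adjusted p = 3.2e-11 in A431, and -2.28 ± 0.05, adjusted p = 9.2e-16 in CAL27). TP63, the master factor of stratified epithelium, had 123 and 109 CPM in CAL27 under NEDD8i, against 522 and 529 CPM under DMSO (-2.18 ± 0.06, adjusted p = 3.18e-15), and 261 and 269 CPM in A431 under NEDD8i, against 279 and 288 CPM under DMSO (-0.10 ± 0.05, adjusted p = 0.153). SNAI1, another repressor of CDH1, was low and rose in CAL27, to 1.56 and 2.14 CPM under NEDD8i, against 0.630 and 0.878 CPM under DMSO (1.29 ± 0.47, adjusted p = 0.0298). TWIST1 had no count in A431 under NEDD8i, against 0.209 and 0.233 CPM under DMSO. KLF4 rose in A431 (0.53 ± 0.07, adjusted p = 1.15e-05) and fell in CAL27 (-1.23 ± 0.07, adjusted p = 2.27e-10).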
